A study of Capra hircus with 2 samples.

Results

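The microRNA miR-375 was examined in the mammary gland of the dairy goat (Capra hircus) at peak lactation and at late lactation. Its reads were taken as every distinct small RNA sequence (tag) that held the last 16 nt of the primer by which the study assayed miR-375, or nt 2 to 17 of its most abundant form. This gave 313 of the 659118 tags of both libraries, 182 of 466727 in the peak library and 229 of 259250 in the late library. Per the study's methods the tissue came from healthy 4-year-old Laoshan dairy goats in the third lactation and was removed by surgery. No treatment is named for either group, and whether the same goats gave tissue at both stages is not stated. Each stage was a single library (called the peak and the late library here) made from the pooled RNA of 5 goats, so differences between the libraries had no replicate check, and whole tissue was sequenced, so fewer cells of a type and less RNA per cell cannot be told apart. The peak library held 19044002 clean reads and the late library 7385833, and levels are given as reads per 1000000 clean reads (RPM). Intervals are 95% exact binomial intervals and hold for counting error alone, as PCR copies of a molecule are not independent.

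miRNAs are cut from hairpin precursors and loaded into an Argonaute protein, where nt 2 to 8, the seed, pair with target mRNAs and lead to their repression. miR-375 is known above all from the endocrine pancreas, where it restrains insulin secretion, and it is also made in epithelia of the gut, lung and breast. Its 5′ end fixes the seed, while its 3′ end may be trimmed or extended by single bases after the hairpin has been cut.

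The most abundant tag that carried the end of the primer was 22 nt long, and its 3′ part was identical to the whole primer. It is called the leading form here and gives the numbering, with nt 1 as its first base. The forms that made up at least 1% of miR-375 reads in a library are shown because they differ at the ends on which the results below turn. They are written in DNA letters as deposited, with bases 2 to 8 of each read, its seed, in capitals.
leading form, nt 1 to 22: tTTGTTCGttcggctcgcgtga
nt 1 to 21: tTTGTTCGttcggctcgcgtg
nt 1 to 20: tTTGTTCGttcggctcgcgt
nt 1 to 19: tTTGTTCGttcggctcgcg
nt 1 to 22 followed by A: tTTGTTCGttcggctcgcgtgaa
nt 1 to 22 followed by AA: tTTGTTCGttcggctcgcgtgaaa
nt 1 to 22 followed by T: tTTGTTCGttcggctcgcgtgat
nt 1 to 22 with the substitution A22T: tTTGTTCGttcggctcgcgtgt
nt 1 to 22 with the substitution T20G: tTTGTTCGttcggctcgcggga
nt 2 to 22, which shifts the seed by 1 base: tTGTTCGTtcggctcgcgtga
nt 0 to 22, with an additional T in front: tTTTGTTCgttcggctcgcgtga

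miR-375 was more abundant in the late lactation library. All its tags together had 11885 reads in the peak library and 40119 in the late library, which is 624 and 5432 RPM, or 0.0624% and 0.543% of the clean reads. The late level was thus 8.70-fold the peak level (95% interval 8.53 to 8.88), a log2 ratio of 3.12 (3.09 to 3.15). The leading form had 7100 reads (373 RPM) in the peak library and 31167 (4219.8 RPM) in the late library, a log2 ratio of 3.50 (3.46 to 3.54). It was the 178th most abundant of all tags in the peak library and the 26th in the late library. Reads discarded for a 5′ adaptor were 0.0494% of high-quality reads for the peak library and 14.0% for the late library. Reads without insert were 0.628% and 7.73%, and clean reads were 98.5% and 73.9% of high-quality reads. The part of these differences in the ratio of miR-375 was not tested. The study also assayed miR-375 by qRT-PCR in the goats one by one, and those values were not used here.

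A ratio of this size was uncommon but not singular among the small RNAs of these libraries. To set it in context, tags were grouped on abundant tags of 20 to 24 nt through nt 2 to 17, as for miR-375, which gave 1181 tag families of at least 10 RPM in a library. The families were not limited to miRNAs, as no annotation was used to part miRNAs from fragments of other RNAs. A shortened form that lacks nt 2 to 17 of a leading tag could also form a family of its own. Of these, 23.2% were at least 2-fold higher in the late library, and the median log2 ratio was -0.41. Among single tags of at least 1 RPM, 30.7% of 26175 were at least 2-fold higher and 10486 at least 2-fold lower, with a median of -0.44. When tags that share their first 18 nt were summed, the median turned to 0.05, and 4380 groups (36.4%) were higher against 3749 lower. The ratio of miR-375 exceeded that of 95.3% of the families, and 55 families had a larger one. By reads, miR-375 was the 103rd family in the peak library and the 19th in the late library. Of the 68 families with at least 1000 RPM in the late library, 3 had a larger ratio than miR-375. This set was chosen by the late level alone, which favours larger ratios, and its median log2 ratio was 0.14. miR-375 itself was under 1000 RPM in the peak library, so its place in this set is not separate support. The family with the largest ratio of the 68 is shown by its leading tag, tAGCACCAtttgaaatcggtta. It had a log2 ratio of 4.37 (4.31 to 4.42), with 154 RPM in the peak library and 3185 RPM in the late library.

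**Figure D1:**
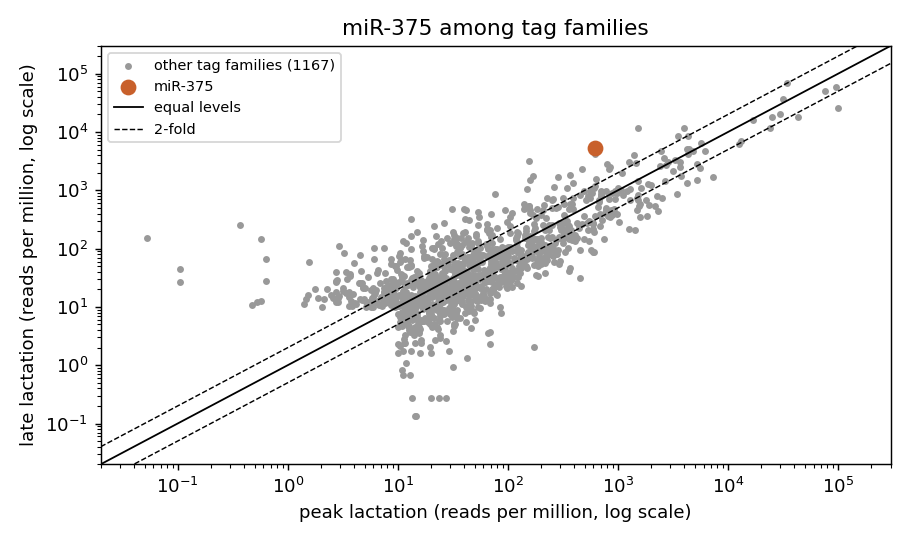
Level of each tag family in the peak library (x axis) and late lactation (y axis), in RPM on log scales, with 1 library per stage; the lines mark equal levels and 2-fold differences. The miR-375 family (tags grouped by nt 2 to 17, 11858 and 40004 reads) lies above the upper 2-fold line with a log2 ratio of 3.12, among 1167 other families with reads in both libraries (13 families without reads in one of them are not drawn).

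The families whose ratio lay nearest to that of miR-375, among those of at least 100 RPM in a library, are given by their leading tags with the seed in capitals. Likeness here is the distance of a single log2 ratio over 2 libraries, and the tags carry no names in the deposited data.
log2 ratio 3.03: tCGTTTCCcggccaatgcacca
log2 ratio 2.98: tATGGCTTtttattcctatgtga
log2 ratio 2.98: gATGAAGCactgtagctctt
log2 ratio 2.97: tTATAATAcaacctgataagtg
log2 ratio 3.28: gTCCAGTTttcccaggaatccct
Of these 5 families, that of gATGAAGCactgtagctctt was the most abundant, with 1508 RPM in the peak library and 11892 RPM in the late library. None of them shares the seed of miR-375.

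Of the marker miRNAs of mammary cell types, miR-214 and miR-100 of connective tissue (stroma) could be followed through the ends of their primers. The other stromal markers and the epithelial, endothelial, erythroid and immune markers were not followed by name. Their tags may lie among the unnamed tag families above, including those nearest to miR-375. miR-214 had 13.2 RPM in the peak library and 327 RPM in the late library, a log2 ratio of 4.63 (4.45 to 4.83). miR-100 went the other way, with 1429 and 212 RPM and a log2 ratio of -2.75 (-2.83 to -2.68). These 2 of the 8 stromal markers therefore moved in opposite directions while miR-375 was higher in the late library. They were followed only because their primers were known, so they do not give the direction of the stromal list. The part of cell composition in the result was not tested.

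Beside the leading form, 10 others made up most of the remaining reads, and these 11 forms together held 93.1% of miR-375 reads in the peak library and 96.4% in the late library. Each of them had more RPM in the late library except the form with T20G, and their log2 ratios ran from -0.66 to 8.14. The 10 higher forms were all at least 2-fold higher, against 30.7% of single tags of at least 1 RPM. They are parts of the same miRNA and not separate cases. The value of 8.14, of the form of nt 1 to 20, rests on 5 reads in the peak library. The intervals of 5 forms lay above that of the sum over all tags, and those of 5 others lay below it. The sum lies between its parts, so forms fall on both sides of it once their ratios differ. Forms also entered by 1% in either library, which favours those that differ. The form of nt 1 to 20 made up 0.0421% in the peak library and 1.37% in the late library. Shares of single forms thus differed between the libraries, but the count of such forms was not set against other families.

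**Figure D2:**
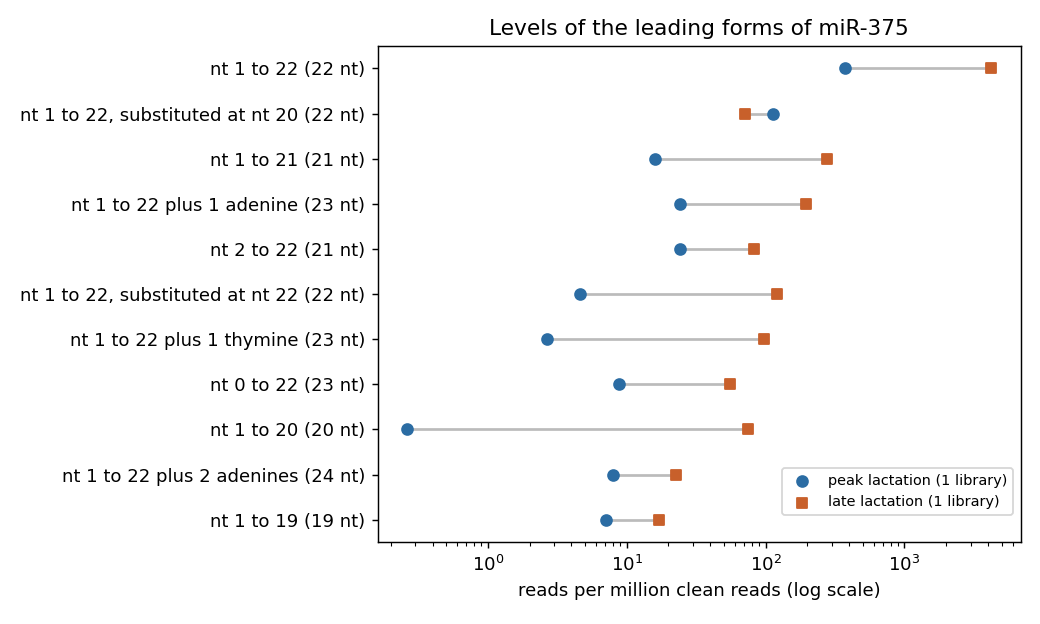
Level in RPM (log scale) of each form with at least 1% of miR-375 reads in a library, in the peak library (circles) and late lactation (squares), with 1 library per stage. The leading form was at 373 and 4219.8 RPM, the form of nt 1 to 20 was at 0.263 and 74.2 RPM, and the form substituted at nt 20 is the single one that lies lower in the late library.

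The 3′ end was mostly at nt 22 in both libraries. Reads that ended there made up 85.9% in the peak library (85.3% to 86.5%) and 84.9% in the late library (84.6% to 85.3%). Reads that reached nt 22 or went past it made up 94.4% (93.9% to 94.8%) and 92.0% (91.7% to 92.3%), so the late share was 2.35 percentage points lower (two-sided Fisher's exact test on reads, P = 1.05e-18). The test is on the reads of a single library per stage and says nothing of the spread between goats. The same share was taken in the 237 other families with at least 1000 reads in each library, which were not limited to miRNAs. It was lower in the late library in 126, and in 94 the difference was larger than in miR-375.

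Of the shorter forms, those that ended at nt 20 and at nt 21 took a larger share of miR-375 in the late library and those that ended at nt 19 a smaller one. Reads that ended at nt 20 numbered 9 in the peak library (0.0757%, 0.0346% to 0.144%) and 649 in the late library (1.62%, 1.5% to 1.75%). The form of nt 1 to 20 itself had 5 and 548 reads, with a log2 ratio of 8.14 (6.91 to 9.77), the largest of the 11 forms. Reads that ended at nt 21 made up 3.95% and 5.91%, and the form of nt 1 to 21 went from 304 reads (16 RPM) to 2057 (279 RPM), a log2 ratio of 4.12 (3.95 to 4.30). Reads that ended at nt 19 made up 1.47% and 0.419%. The ends at nt 19 and nt 20 therefore exchanged their order between the libraries, with intervals that did not overlap at either end. An increase of reads that stop 2 nt before the end of the leading form was also found elsewhere, since 130 of the 237 other families had it and in 59 of them it was larger than in miR-375.

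**Figure D3:**
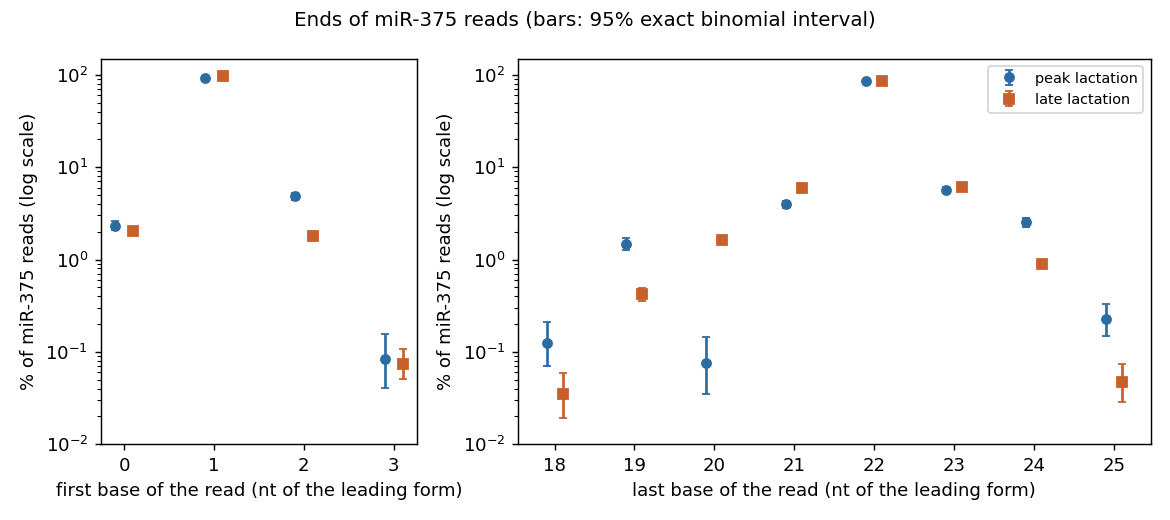
Share of miR-375 reads (%, log scale) by first base (left) and last base (right), numbered on the leading form, in the peak library (circles) and late lactation (squares); bars are 95% exact binomial intervals. The ends at nt 22 lie at 85.9% and 84.9%, whereas the ends at nt 20 lie at 0.0757% in the peak library and 1.62% in the late library.

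The mean length of miR-375 differed little between the libraries, while the size of the difference in the share of 22 nt reads depended on which tags were counted. The mean was 22 nt in both libraries. Reads of 22 nt made up 80.7% in the peak library (80.0% to 81.4%) and 82.4% in the late library (82.0% to 82.8%; two-sided Fisher's exact test on reads, P = 2.79e-05), a difference of 1.69 percentage points. It was 4.29 points without the tags that hold T20G and 6.19 points over the tags with the primer's last 16 nt alone. Reads of 20 nt went from 0.572% to 1.68% and reads of 24 nt from 2.30% to 0.912%, while those of 21 nt (7.63% and 7.17%) and 23 nt (7.10% and 7.27%) had overlapping intervals.

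At the 5′ end, which sets the seed, the libraries differed by a few percentage points. Reads that began at nt 1 made up 92.7% in the peak library (92.2% to 93.2%) and 96.0% in the late library (95.8% to 96.2%; two-sided Fisher's exact test on reads, P = 1.49e-45). Reads that began at nt 2 fell from 4.81% (4.43% to 5.21%) to 1.80% (1.67% to 1.93%), whereas those that began at nt 0 made up 2.33% (2.07% to 2.62%) and 2.03% (1.89% to 2.17%), with overlapping intervals. The form of nt 2 to 22 had 458 and 606 reads, with a log2 ratio of 1.77 (1.59 to 1.95), which is well under that of the leading form. Read by their own bases 2 to 8, 92.6% of miR-375 reads in the peak library and 95.9% in the late library carried the seed of the leading form, TTGTTCG. The shifted seed TGTTCGT was carried by 4.79% and 1.78% of the reads, and the seed TTTGTTC by 2.31% and 2.02%. Of the 237 other families, 107 had a higher share at the first base of their leading tag in the late library, and in 63 the gain was larger than in miR-375. These families, not limited to miRNAs, had a median share there of 66.4% in the peak library and 70.6% in the late library.

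Letters past nt 22 were mostly adenine in both libraries, but thymine (uridine in the RNA) gained in the late library. Small RNAs can receive such bases from terminal nucleotidyl transferases. The hairpin sequence of goat miR-375 was not used here, so added bases and bases of the precursor could not be told apart. Reads with a tail of adenine alone made up 6.45% in the peak library (6.02% to 6.91%) and 4.36% in the late library (4.16% to 4.56%). The form followed by A had 460 and 1452 reads, with a log2 ratio of 3.02 (2.87 to 3.18), and that followed by AA had 152 and 167, a log2 ratio of 1.5 (1.18 to 1.83). Reads with a tail of thymine alone went from 84 to 826, which is 0.707% (0.564% to 0.874%) and 2.06% (1.92% to 2.20%). The form followed by T had 51 reads (2.68 RPM) in the peak library and 720 (97.5 RPM) in the late library, a log2 ratio of 5.19 (4.78 to 5.63).

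The form with A22T, in which the last base of the leading form is a thymine, showed a gain of the same direction. It had 88 reads (4.62 RPM) and 891 reads (121 RPM), a log2 ratio of 4.71 (4.39 to 5.04). A substitution at nt 22 and a thymine added to the form of nt 1 to 21 give the same sequence and cannot be told apart. Over all ends, reads whose last base was thymine made up 2.78% of miR-375 in the peak library (2.49% to 3.09%) and 6.42% in the late library (6.18% to 6.66%), and reads whose last base was adenine made up 91.1% and 86.9%. Per 100 reads of the leading form there were 0.718 reads followed by T in the peak library and 2.31 in the late library. The same measure was higher in the late library in 70 and lower in 96 of the 237 other families, and in 34 it grew by more than in miR-375. For a last base replaced by thymine, 10 of 174 other families, those whose leading tag does not end in thymine, had a larger gain.

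The most abundant form of miR-375 in the peak library after the leading one was the tag with T20G, shown here with the substituted base in capitals: tttgttcgttcggctcgcgGga. It had 2141 reads in the peak library, 18% of miR-375, and 526 in the late library, 1.31%. In RPM it went from 112 to 71.2, a log2 ratio of -0.66 (-0.80 to -0.52), against 3.50 for the leading form. Tags with T20G do not hold the last 16 nt of the primer. Reads that hold those 16 nt made up 72.5% of miR-375 in the peak library (71.7% to 73.3%) and 87.4% in the late library (87.1% to 87.7%). The log2 ratio was accordingly 3.39 (3.36 to 3.43) over the tags with the primer's last 16 nt, from 8613 and 35068 reads, and 3.43 (3.40 to 3.46) over all tags without T20G.

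Substitutions were more frequent in the peak library at most positions from nt 11 to 20, and most of the excess lay at nt 20 and nt 17. Single substitutions at nt 1 to 10 of the leading form numbered 0.324 per 100 reads of that form in the peak library and 0.401 in the late library. At nt 20 they numbered 30.6 and 1.76 per 100. At nt 17 they numbered 5.73 and 0.119, of which the substitution G17C gave 5.21 and 0.0610. At nt 22 the order was the reverse, with 1.46 and 3.02, mostly A22T. Without nt 17, 20 and 22 there were still 3.04 and 1.25 per 100. These included 0.324 and 0.0513 at each of nt 12 and 13, 0.549 and 0.0738 at nt 14, 0.423 and 0.215 at nt 16, and 0.704 and 0.0963 at nt 19, while nt 18 and nt 21 had no more than 0.148 in either library. The tag with G17C, tttgttcgttcggctcCcgtga, held neither sequence used to find miR-375. It lay just outside the counted tags with 370 reads in the peak library and 19 in the late library, among 165 tags with a single mismatch in nt 2 to 17 that had 867 and 331 reads in all.

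**Figure D4:**
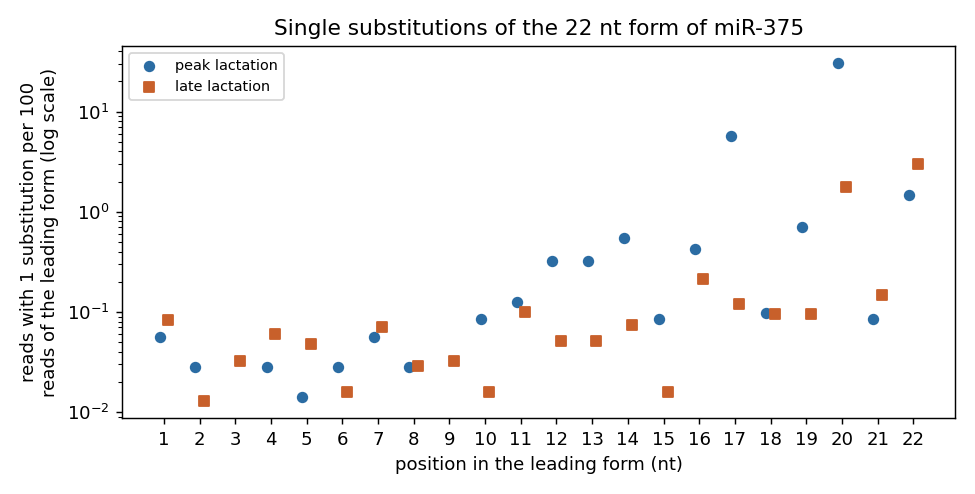
Reads that differ from the leading form of miR-375 by a single substitution, per 100 reads of the leading form (log scale), by position in the peak library (circles) and late lactation (squares). Positions 17 and 20 stand out in the peak library, at 5.73 and 30.6 per 100, and positions 3 and 9, with no such read in the peak library, have no circle.

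No other abundant tag had as large a share of T-to-G substitution in the peak library. Among 28 other leading tags with a T at nt 20 and at least 1000 reads in each library, the change from T to G there had a median of 0.0288 per 100 reads in the peak library and 0.0372 in the late library. Its highest value in the peak library was 1.54 per 100. Over all T beside nt 20 of miR-375 in the 91 such tags with a T, miR-375 included, 518 sites in all, the highest value in the peak library was 17.3, with 12.6 in the late library, at the penultimate base of gATGAAGCactgtagctctt. In the late library, 2 of these sites exceeded the 1.69 per 100 of T20G. For the change from G to C at nt 17, the highest value among 19 other tags was 0.126 per 100 in the peak library, and in the late library 4 of the 19 exceeded miR-375. Over 554 other sites with a G in these tags, at any position, the change from G to C reached 3.89 per 100 in the peak library and 9.001 in the late library, both at the last base of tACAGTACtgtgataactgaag. None exceeded the 5.21 per 100 of G17C in the peak library, whereas 43 exceeded its 0.0610 in the late library.

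The share of T20G also differed between forms of miR-375 that start at different bases. Within the form of nt 1 to 22, T20G made up 23.2% in the peak library (22.3% to 24%) and 1.66% in the late library (1.52% to 1.81%). It made up 18.9% (15.1% to 23.3%) in the peak library in the form of nt 1 to 21 and 11.9% (9.23% to 15.0%) in the form followed by A. In the form of nt 2 to 22, where the same base is base 19 of the read, T20G made up 2.35% in the peak library (1.18% to 4.16%), or 11 reads of T20G beside 458. In the form of nt 0 to 22, where it is base 21 of the read, it made up 2.33% (0.637% to 5.85%), or 4 beside 168. The peak intervals of both shifted forms lay below those of the forms of nt 1 to 22, nt 1 to 21 and nt 1 to 22 followed by A. The share of G17C in the peak library did not follow the first base of the form. It was 4.95% in the form of nt 1 to 22 (4.47% to 5.47%), 11.9% in that of nt 1 to 21 (8.66% to 15.8%), 2.13% in the form followed by A (1.02% to 3.88%) and 23.9% in the form followed by T (14.3% to 35.9%). In the form of nt 1 to 20 it was 5 reads beside 5. In the forms of nt 2 to 22 and nt 0 to 22 it was 1.93% (0.885% to 3.63%) and 16% (11.2% to 21.8%), within the range of the forms that start at nt 1 or just below it.

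**Figure D5:**
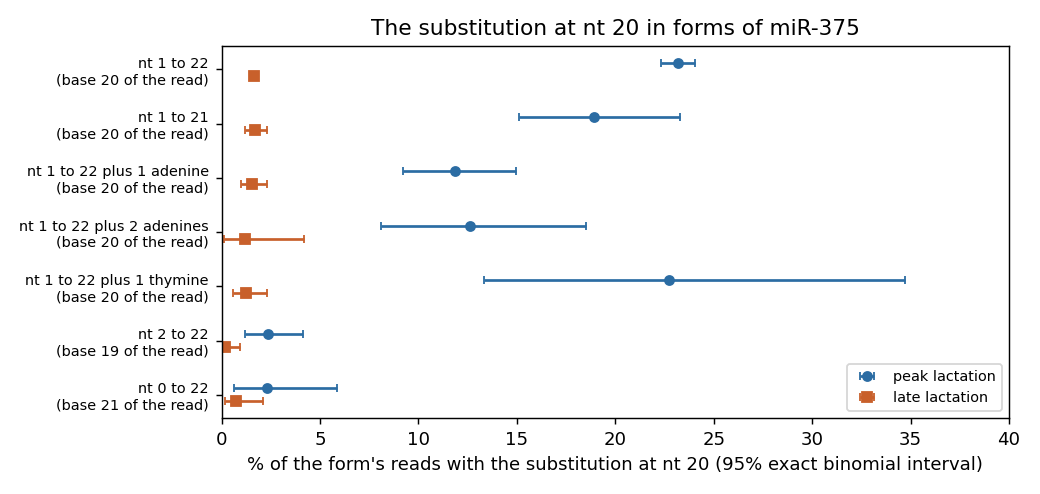
Share of reads with the substitution at nt 20 within forms of miR-375 (x axis, %, with 95% exact binomial intervals), in the peak library (circles) and late lactation (squares). In peak lactation the form of nt 1 to 22 lies at 23.2%, and the forms that start at nt 2 or nt 0 lie at 2.35% and 2.33%.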

How the data were processed

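Small RNA of 1 pooled library per stage was sequenced by Illumina/Solexa. The authors discarded reads of low quality, without 3′ adaptor, with 5′ adaptor, without insert, with poly(A) or under 18 nt. They deposited each tag's length and raw read count, without normalization, mapping or names, and how many reads each filter removed. For this filtering, versions of the tools are not given in the sources at hand. A count of 0 may stand for up to 3 reads (0.158 RPM in the peak and 0.406 RPM in the late library). This floor is given for reading only and did not enter the ratios, shares or intervals. In ratios of families and tags, zeros were set to a lower value given below.

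The leading form was the tag with the most reads among tags that held the last 9 nt of the miR-375 primer. Tags were placed on it without gaps. No table of annotated miRNAs was used, so tag families of leading tags with at least 50 reads replaced the annotated miRNAs meant as background, and the passenger strand was not analysed here. Counts of other families therefore do not compare miR-375 with miRNAs alone. No p-value across animals was possible. Shares were compared by Fisher's exact test with a limit of P at 0.01, and a ratio was called at 2-fold. Zeros were set to 0.01 RPM in ratios of families and tags. Named forms had at least 1% of miR-375 reads in a library. The members and lists were chosen with earlier results of these data known. Scripts were tested on simulated data. The tools were R 4.3.3 with edgeR 4.0.16 and DESeq2 1.42.0, used only for scaling factors on tags with 10 or more reads in each library, and Python 3.11.15 with scipy 1.17.1, pandas 2.3.3, numpy 2.4.6 and matplotlib 3.10.9.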

Additional observations from a re-analysis of the deposited data

Results flagged for a closer look

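The tag of miR-375 with G17C had 370 reads in the peak library and 19 in the late library, although it lies outside the tags that were counted as miR-375. It is listed because it differs from the leading form by a single base and yet was left out of the level of miR-375. A tag with both G17C and T20G had 35 reads in the peak library and 0 in the late library.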

How the results depend on the processing

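The log2 ratio of miR-375 stayed above the 2-fold limit under all 11 alternatives run, from 3.03 with a mismatch allowed in nt 2 to 17 to 3.50 with the leading form alone. TMM factors gave 3.12 and median-ratio factors 3.10. The shares of the 3′ end, the 5′ end and 22 nt forms kept their direction and their side of the limit under the alternatives run for each. Leaving out tags with T20G, an alternative added after seeing the data, changed the late minus peak difference in the 22 nt share from 1.69 to 4.29 percentage points, and with the last 16 nt alone, also added, it was 6.19. Without T20G the 5′ difference went from 3.29 to 4.93 points and the 3′ difference from -2.35 to -1.76 points. The number of tags at least 2-fold higher in the late library was 8045 of 26175. It was 220657 of 659118 without a filter, 1437 of 5097 at 10 RPM and 4380 of 12039 with tags grouped by their first 18 nt. For tag families it was 274 of 1181, and 111 of 420 at 100 RPM. Fewer or more features enter each of these by construction. The alternatives that need annotated miRNAs (their total as depth, and their number as background) were not run. No paired analysis was possible because each stage is a single library. With 1 library per stage, depth limits the small shares, and no alternative here measures the spread between goats.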

Other observations

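Besides the counted tags of miR-375, 140 tags carried its seed at their bases 2 to 8, with 784 reads in the peak library and 294 in the late library. The tag with G17C was the most abundant of them. Tags of miR-375 longer than 26 nt numbered 27, with 11 and 24 reads, and the longest had 44 nt.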
